A study of Sus scrofa with 21 samples.

Results

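Remote myocardium (RM) at 4 weeks after myocardial infarction (MI) was compared with RM at 1 week, over 3 arrays of 3 pigs at each stage, which are 6 of the 21 arrays of the series. The arrays of each stage were taken by their labels alone (tissue region and time). The choice of groups to compare was made with earlier results of these data known. All infarcted animals were female Landrace x Large White crossbred pigs of 30-40 kg whose circumflex artery had been ligated for good at its first marginal branch. RM was taken from the interventricular septum, away from the scar. RM at 1 week came from pigs 7, 8 and 9, and RM at 4 weeks from pigs 18, 20 and 22, so no animal was followed over time and every difference between the stages is a difference between animals. The infarct core (IC) of the same 6 pigs, RM of pigs 2, 3 and 5 at 6 weeks and control myocardium (CM) of pigs 30, 31 and 33 were used for reference. The labels call the CM animals sham-operated, which the series description gives as an opened chest without ligation, while the study's text calls them healthy.

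After an infarct, the surviving muscle far from the scar carries more load, is exposed to neurohormones such as angiotensin and endothelin, and over weeks can enlarge and change its fuel use. Heart muscle normally burns mainly fatty acids, which are stored in lipid droplets, released by lipases and oxidised in mitochondria. Muscle mass is set by the balance of growth signalling through mTOR with protein breakdown through ubiquitin ligases, the proteasome and autophagy.

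The tissue carried the markers of ventricular muscle. Of 9 defining cardiomyocyte genes, 8 were on the array and passed the filter (ACTC1, MYH7, MYL2, MYL3, PLN, TNNI3, TNNT2 and TTN), with group means of 11.49 to 13.01 on the log2 scale in RM at 4 weeks, and 0 of the 8 differed between the stages. Their averaged level was 12.22 to 12.28 in the RM arrays at 1 week and 12.12 to 12.20 at 4 weeks, against 11.50 to 11.77 in IC at 1 week. None of the 3 lymphocyte and 3 neutrophil genes on the array passed the filter. The averaged level of the fibroblast genes COL3A1, DCN and LUM was 6.81 to 7.25 at 1 week and 6.57 to 7.07 at 4 weeks, and that of the smooth muscle genes ACTA2, CNN1 and TAGLN was 5.96 to 6.37 and 6.25 to 6.44, so the arrays of the stages overlapped for both. The endothelial genes CDH5, PECAM1 and VWF averaged 5.94 to 6.81 at 1 week and 6.65 to 6.92 at 4 weeks, and S100B, the nerve marker that passed the filter, read 3.87 to 4.74 and 4.92 to 5.11, without overlap. None of these 4 was called, and the part of cell types in the differences given here was not tested. These are samples of whole tissue, in which fewer cells of a type and less RNA per cell cannot be told apart.

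Labelling differed between the stages. The spiked-in bacterial transcript thr, which measures labelling and not the tissue, read 4.11 to 4.19 at its 5′ end in the 3 RM arrays at 4 weeks, above the 2.15 to 3.02 of the arrays at 1 week. Its 3′ end read 5.65 to 5.95 and 5.24 to 5.58. For the pig's own elongation factor transcript ef1a, the 3′ probe set exceeded the 5′ probe set by 1.04 to 1.43 on the log2 scale at 4 weeks and by 2.05 to 2.15 at 1 week, and the arrays did not overlap. Of 86 control probe sets tested, 0 were called, with 19 higher and 1 lower at 4 weeks at an unadjusted P value under 0.05. The part of labelling in the differences given here was not tested beyond the covariate fits named with the counts.

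**Figure D1:**
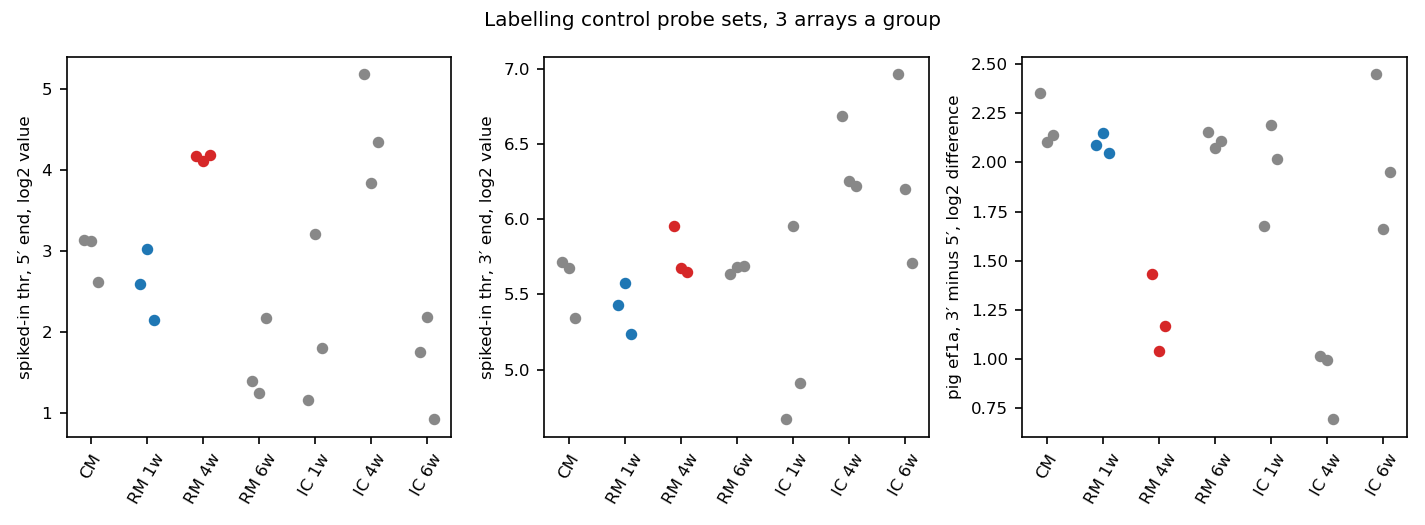
Labelling controls in the 21 arrays, 3 per group. The left and middle panels plot the log2 values of the 5′ and 3′ probe sets of the spiked-in bacterial thr transcript and the right panel the 3′ minus 5′ log2 difference of pig ef1a, with RM at 1 week in blue and RM at 4 weeks in red. In the left panel the 4 week RM arrays sit between 4.11 and 4.19, above all RM arrays at 1 week, and in the right panel they sit between 1.04 and 1.43, below them.

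Among 12180 probe sets tested, 194 were differentially expressed probe sets (DEPS) at an adjusted P value under 0.05, which is 1.59% of those tested. Of these, 113 were higher at 4 weeks (0.928%) and 81 were lower (0.665%). At an unadjusted P value under 0.05 there were 2282 probe sets (18.7%). The median difference over all tested probe sets was -0.01 on the log2 scale. The median rise among the DEPS was 1.00 and the median fall -0.84, absolute differences ranged from 0.46 to 6.99, and 80 DEPS changed by at least 1 (56 higher and 24 lower). A gene name could be given to 140 DEPS, of which 90 rose and 50 fell. The 6 arrays of the stages did not overlap for 112 of the 113 rises and 80 of the 81 falls, while 26.2% of all tested probe sets had no overlap. For 29 DEPS, 18 rises and 11 falls, the mean of a stage lay below 3, the level of the filter, where the size of a difference is uncertain. Just inside the threshold were GLDN (log2 FC 1.11, adjusted P value 0.0491) and WDR55 (0.90, 0.0494), and just outside it CYTH2 (0.70, 0.0503) and KLHL2 (-0.78, 0.0519).

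The number of DEPS changed when single arrays were left out or a labelling measure was added to the fit, while their sizes changed little. It fell to 21 without pig 20 and to 33 without pig 22 at 4 weeks, to 64 without pig 9 and to 90 without pig 8 at 1 week, and to 1 when the 3′ minus 5′ difference of GAPDH, or of the spiked-in transcripts, was added to the fit, whereas all 194 kept their sign in these fits, with median rises of 0.94 to 1.03 and median falls of -0.76 to -0.87. The DEPS were chosen on these same arrays, so the kept signs and sizes are not independent support. Where the arrays of the stages do not overlap, leaving 1 out cannot turn the sign. Of the 140 named DEPS, 10 were called in all 6 fits that left out 1 RM array of these stages and 9 in none of them. Of the genes described below, PLIN2 was called in 3 of these 6 fits. FBXO32, FDFT1, MUT, PPARD, EDNRA and SESN1 were called in 2, and PIK3IP1, CDKN1B, IFI44L, HSPA2 and RASA1 in 1.

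Among the largest named rises were a gene of lipid storage and one of fatty acid oxidation. PLIN2, the protein that coats lipid droplets, had log2 values of 2.85, 3.12 and 2.54 at 1 week and of 4.52, 4.90 and 5.24 at 4 weeks. All arrays at 4 weeks were above all arrays at 1 week, and the log2 FC was 2.05 (SE 0.37, adjusted P value 0.0121). The 1 week mean of 2.83 lay below 3, the level of the filter, so the size of the rise is uncertain. The CM mean was 4.71 and the RM mean at 6 weeks 4.60, near that at 4 weeks, and RM at 1 week was below CM by 1.87 on the log2 scale (adjusted P value 0.0226). The study lists the same difference at 1 week but marks PLIN2 as not significant there and at 4 and 6 weeks.

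ACADVL, which catalyses the first step of the oxidation of very long chain fatty acids in mitochondria, read 5.73, 5.58 and 6.16 at 1 week and 7.59, 7.48 and 7.34 at 4 weeks. The groups did not overlap, with a log2 FC of 1.64 (SE 0.22, adjusted P value 0.0032). Here it was the 4 week stage that stood apart, since the means of CM (5.80) and of RM at 6 weeks (5.58) were near that at 1 week. A second ACADVL probe set differed by 0.44 and was not called. ACADVL was called without any one of the 6 arrays.

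FDFT1, squalene synthase, which commits isoprenoids to cholesterol synthesis, read 7.41, 6.78 and 6.26 at 1 week and 8.21, 8.52 and 8.25 at 4 weeks. It rose by 1.51 on the log2 scale (SE 0.34, adjusted P value 0.0303) with no overlap. FLAD1, which makes the FAD cofactor of acyl-CoA dehydrogenases, rose by 0.90 (adjusted P value 0.0133).

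In the other direction, MUT, methylmalonyl-CoA mutase, which feeds the carbon of odd-chain fatty acids and branched-chain amino acids into the citric acid cycle, read 4.95, 5.60 and 5.76 at 1 week and 4.60, 4.18 and 4.39 at 4 weeks. The groups did not overlap and MUT fell by 1.05 (SE 0.25, adjusted P value 0.0388). PPARD, a nuclear receptor that drives genes of fatty acid oxidation in heart muscle, fell by 0.46 (SE 0.11, adjusted P value 0.0441), the smallest difference among the DEPS, and another PPARD probe set differed by 0.05.

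The wider metabolic lists did not all move in one direction. Lists here and below take 1 probe set per gene, that of highest level, the study's own list aside. In fatty acid uptake, droplets and PPAR targets, 21 genes were measured, 1 rose (PLIN2), 1 fell (PPARD) and the median was 0.13, against a median of -0.01 with 30 rises and 23 falls over 4976 genes with a platform symbol. Over those 4976 genes, 395 were higher and 409 lower at an unadjusted P value under 0.05 and 2418 were positive, the background for the lists here. Of 19 genes of fatty acid breakdown none was called, 15 were positive and the median was 0.20. The called ACADVL probe set, of lower level than the second one, is not in that count. The averaged level of the 19 was 8.60 to 8.78 at 1 week and 8.85 to 8.92 at 4 weeks. That of the 21 genes of uptake, droplets and PPAR targets was 6.34 to 6.54 and 6.77 to 6.84. The arrays of the stages did not overlap for either list, and 26.2% of all tested probe sets had no overlap. It is not particular to these lists. Averaged levels of other lists were also apart, among them antigen presentation, TGF-beta signalling and, lower at 4 weeks, the hypoxia response. Several members of the fatty acid lists had large differences that did not pass. PDK4 is the kinase that turns off pyruvate dehydrogenase when fat is burned. It read 8.07, 7.59 and 7.58 at 1 week and 10.16, 10.24 and 9.85 at 4 weeks (log2 FC 2.33, adjusted P value 0.282, from a spread that is pooled over all 7 groups). CPT1A, which admits fatty acids to mitochondria, differed by 1.03 (adjusted P value 0.148) and the droplet lipases PNPLA2 and LIPE by 0.95 and 1.35 (adjusted P values 0.154 and 0.297). Of 54 genes of the respiratory chain and ATP synthase none was called (median -0.10), nor was any of 26 genes of the citric acid cycle (median -0.08) or of 20 of glycolysis and glycogen (median -0.12). For each of these lists the averaged levels of the stages overlapped.

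Of 4 defining adipocyte genes only FABP4 passed the filter. It read 9.41, 8.60 and 7.40 at 1 week and 8.64, 9.49 and 9.59 at 4 weeks, with overlap, and 0 of 6 adipocyte markers measured were called, with a median of 0.74. The averaged level of these 6 was 6.33 to 7.14 at 1 week and 7.17 to 7.29 at 4 weeks. Its part in the rise of the lipid genes was not tested.

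**Figure D2:**
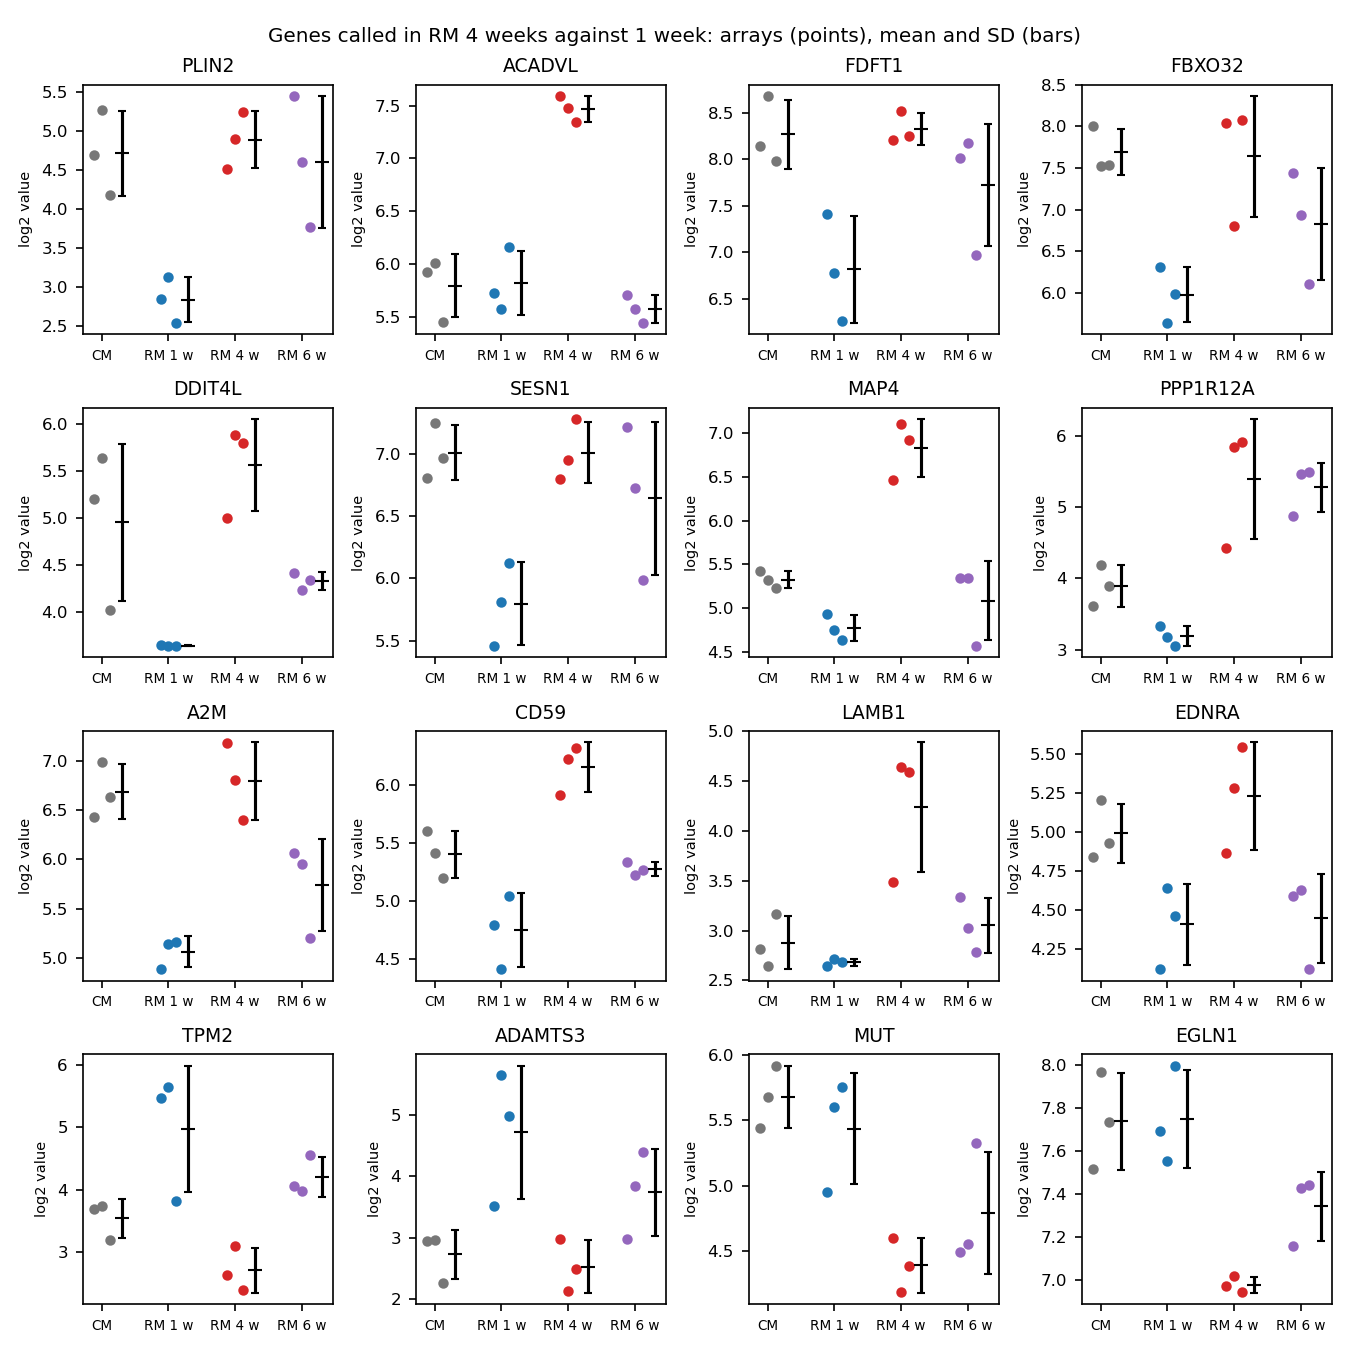
Log2 values of 16 called genes in CM and in RM at 1, 4 and 6 weeks. Each point is 1 array (3 per group), the horizontal mark is the mean and the bar the SD, and each panel has its own axis, which does not start at 0. PLIN2, FDFT1, FBXO32, SESN1 and A2M had 4 week means near those of CM with 1 week means below them, whereas ACADVL, MAP4 and LAMB1 were highest at 4 weeks, and TPM2, ADAMTS3, MUT and EGLN1 were lower at 4 weeks than at 1 week.

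Several of the called genes act in growth control or protein breakdown. FBXO32 (atrogin-1), a muscle ubiquitin ligase subunit that marks proteins for the proteasome in atrophy, read 6.30, 5.64 and 5.99 at 1 week and 8.04, 6.80 and 8.08 at 4 weeks. There was no overlap, and the log2 FC was 1.66 (SE 0.40, adjusted P value 0.0422). A second FBXO32 probe set, which had the higher level, differed by 1.09 (adjusted P value 0.159). RM at 1 week lay below CM by 1.71 (adjusted P value 0.0455) and RM at 4 weeks differed from CM by -0.05.

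DDIT4L, an inhibitor of mTOR signalling, was at 3.64 in each array at 1 week and at 5.00, 5.88 and 5.80 at 4 weeks. The log2 FC was 1.92 (SE 0.37, adjusted P value 0.0144). SESN1, sestrin 1, a stress-induced protein that also lowers mTOR activity, read 5.46, 5.81 and 6.13 at 1 week and 6.80, 6.95 and 7.28 at 4 weeks. It rose by 1.21 (SE 0.25, adjusted P value 0.0212), to the CM mean of 7.01, and its second probe set differed by 0.67 without being called. The arrays of the stages did not overlap for either gene.

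Further called genes in the same group of functions rose. PIK3IP1, an inhibitor of PI3 kinase, rose by 1.20 (adjusted P value 0.0416), and CDKN1B (p27), which holds cells out of the cell cycle, by 1.27 (adjusted P value 0.0323). HBP1, a transcriptional repressor that slows the cell cycle, rose by 0.97 (adjusted P value 0.0155), and PRKAG1, a regulatory subunit of the energy sensor AMP kinase, by 0.87 (adjusted P value 0.0232). In protein breakdown, PSMF1, an inhibitor of the proteasome, rose by 1.32 (adjusted P value 0.0095), ATG12, which is needed to build autophagosomes, by 0.98 (adjusted P value 0.0121) and LAP3, a cytosolic aminopeptidase, by 1.08 (adjusted P value 0.0095). Other tested probe sets of these genes differed by less and were not called: PIK3IP1 by 0.80, CDKN1B by 0.28, PRKAG1 by 0.35, PSMF1 by 0.29, ATG12 by 0.20 and LAP3 by 0.23.

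In the list of proteasome, ubiquitin ligase and autophagy genes 38 were measured and, on the probe set of highest level, 0 were called, 8 were higher and 1 was lower at an unadjusted P value under 0.05, and 29 of 38 were positive with a median of 0.12. The largest were FBXO32, the autophagosome protein GABARAPL1 (0.96, adjusted P value 0.193), the autophagy receptor SQSTM1 (0.60, adjusted P value 0.0661) and the proteasome ATPase PSMC3 (0.52, adjusted P value 0.149). The averaged level of the 38 was 7.89 to 8.09 in the arrays at 1 week and 8.13 to 8.14 at 4 weeks.

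Several further called genes act on the cytoskeleton or on contraction. PPP1R12A, the targeting subunit of myosin phosphatase, had the largest rise of a named gene, from 3.34, 3.18 and 3.06 to 4.43, 5.84 and 5.92, without overlap (log2 FC 2.21, SE 0.45, adjusted P value 0.0195). Its other probe sets, at higher levels, differed by 0.13 and 0.08. PPP1CA, a catalytic subunit of the same class of phosphatases, rose by 0.78 (adjusted P value 0.0131), while its other probe set differed by 0.37 (adjusted P value 0.106). PPP1R12B, the related targeting subunit of heart and skeletal muscle, fell from 5.35, 5.66 and 5.96 to 4.83, 4.72 and 4.45 (log2 FC -0.99, SE 0.21, adjusted P value 0.0232).

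MAP4, which binds and stabilises microtubules, read 4.94, 4.75 and 4.64 at 1 week and 6.47, 7.11 and 6.92 at 4 weeks. The log2 FC was 2.05 (SE 0.32, adjusted P value 0.0089) with no overlap, and MAP4 was called without any one of the 6 arrays. At 6 weeks the mean was 5.09, lower than at 4 weeks by 1.74 (adjusted P value 0.0128), and the other MAP4 probe sets differed by 0.87 and 0.67 between 4 weeks and 1 week without being called. WDR1, which speeds the turnover of actin filaments, rose by 0.94 (adjusted P value 0.0195), while its other tested probe set, of higher level, differed by -0.29. LMCD1, a protein of the sarcomere's Z disc with a role in hypertrophy, rose by 0.76 (adjusted P value 0.0393), a call that was lost in each fit that left out 1 of the 6 arrays.

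TPM2, beta-tropomyosin, read 5.46, 5.65 and 3.81 at 1 week and 2.64, 3.09 and 2.39 at 4 weeks, a fall of 2.26 (SE 0.44, adjusted P value 0.0155) with no overlap, and the CM mean was 3.54. The 4 week mean lay below 3, so the size of the fall is uncertain. The other 3 TPM2 probe sets differed by -0.40 to 0.19. Of 15 sarcomere genes, 15 of calcium cycling and ion channels and 11 of wall stress and the fetal programme, none was called, and their medians were -0.01, 0.06 and 0.10. Members with larger differences that did not pass were the Z disc gene TCAP (0.55, adjusted P value 0.218), XIRP1 (1.06, 0.262), which lies at intercalated discs, the calcium regulator S100A1 (0.92, 0.237), the sodium-calcium exchanger SLC8A1 (0.80, 0.193) and the calcium release channel RYR2 (0.51, 0.266). The atrial natriuretic peptide gene NPPA differed by 0.10 with an SE of 1.61, a spread too wide to show a change of the size seen in the DEPS.

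Among secreted and surface proteins, A2M, a broad protease inhibitor of plasma and tissue, read 4.88, 5.14 and 5.16 at 1 week and 7.19, 6.81 and 6.40 at 4 weeks. It rose by 1.74 (SE 0.30, adjusted P value 0.00999) with no overlap. Its mean was 6.69 in CM, and RM at 1 week was below CM by 1.63 (adjusted P value 0.0169). CD59, which protects cells from the complement membrane attack complex, rose from 4.79, 4.41 and 5.04 to 5.91, 6.22 and 6.32 (log2 FC 1.40, SE 0.23, adjusted P value 0.0095), while another CD59 probe set differed by -0.39.

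LAMB1, a laminin chain of the basement membrane, was at 2.65, 2.72 and 2.68 at 1 week and at 3.49, 4.64 and 4.59 at 4 weeks. It rose by 1.55 (SE 0.27, adjusted P value 0.00999), its arrays did not overlap, and its other probe set differed by 0.42. All its 1 week values lay below 3, so the size of the rise is uncertain. PCOLCE2, which enhances the trimming of procollagen, rose by 1.40 (adjusted P value 0.0333) and SPARCL1, a matricellular protein, by 0.76 (adjusted P value 0.0377). ADAMTS3, a procollagen N-proteinase, fell from 3.52, 5.65 and 4.98 to 2.98, 2.13 and 2.48 (log2 FC -2.19, SE 0.47, adjusted P value 0.0232), without overlap and with a CM mean of 2.73. All its 4 week values lay below 3, so the size of the fall is uncertain.

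Of 9 collagens none was called (median 0.04), nor was any of 20 listed matricellular, elastic fibre and crosslinking genes (median -0.08), a list that does not hold SPARCL1, or of 11 fibroblast markers (median -0.20). POSTN and THBS1, matricellular proteins of remodelling tissue, differed by -1.14 each (adjusted P values 0.172 and 0.120), LUM and COL15A1 by -0.92 and -0.91 (0.115 and 0.125), and the collagen crosslinking enzyme LOX by 1.22 (0.266).

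EDNRA, the endothelin receptor of muscle cells, read 4.13, 4.64 and 4.46 at 1 week and 4.86, 5.28 and 5.54 at 4 weeks. The groups did not overlap and the log2 FC was 0.82 (SE 0.19, adjusted P value 0.0337). It was the only one of 14 measured angiotensin, endothelin and adrenergic genes that was called. The angiotensin receptor AGTR1 and the angiotensin-cleaving aminopeptidase ENPEP differed by 0.81 each (adjusted P values 0.145 and 0.103). Of 19 genes of TGF-beta, BMP and activin signalling none was called, with a median of 0.22, among them ID1, a target of BMP signals (1.21, adjusted P value 0.181), the ligand BMP4 (0.65, 0.157) and the receptor ACVR1 (-0.56, 0.148). TGIF1, a repressor of TGF-beta responses outside that list, rose by 1.17 (adjusted P value 0.0232).

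The oxygen sensor EGLN1 (PHD2), the hydroxylase that marks HIF1A for destruction, read 7.69, 7.55 and 8.00 at 1 week and 6.97, 7.02 and 6.95 at 4 weeks. It fell by 0.77 (SE 0.15, adjusted P value 0.0158) with no overlap, while its other probe sets differed by -0.16 and 0.07. Of 16 genes of the hypoxia response 0 were called, 0 were higher and 4 were lower at an unadjusted P value under 0.05, and the median was -0.14. The 4 largest were the glucose transporter SLC2A1 (-1.86, adjusted P value 0.0853), lactate dehydrogenase LDHA (-0.81, 0.193), the collagen prolyl hydroxylase P4HA2 (-0.69, 0.139) and HIF1A itself (-0.59, 0.0975), which read 7.45, 7.61 and 7.59 at 1 week and 6.96 in each array at 4 weeks. Of 21 immediate early genes, induced within minutes of a stimulus, 0 were called, with 2 higher and 6 lower at an unadjusted P value under 0.05 and a median of -0.30. IER5 differed by -1.47 (adjusted P value 0.0991), the phosphatase DUSP1 by -1.33 (0.0931) and FOS by -1.26 (0.508), whereas NR4A3 differed by 1.23 (0.564).

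In innate immune signalling, MAVS, the mitochondrial adaptor of viral RNA sensors, rose from 4.53, 4.91 and 4.52 to 5.55, 6.28 and 6.32 (log2 FC 1.39, SE 0.26, adjusted P value 0.0133). IFI44L, an interferon-induced gene, rose by 1.12 (adjusted P value 0.0345), and TANK, a regulator of the kinases downstream of MAVS, fell by 0.90 (adjusted P value 0.0314). The arrays of the stages did not overlap for any of these 3 genes.

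The list of interferon-induced genes had 22 members measured and 0 called, 20 of them positive with a median of 0.56, and this was carried mostly by 1 animal. Its averaged level was 4.34, 4.67 and 4.77 at 1 week and 4.87 and 4.70 in pigs 18 and 22 at 4 weeks, against 6.06 in pig 20. ISG15, a ubiquitin-like interferon product, read 9.06 in pig 20, with 6.45 and 6.23 in the other pigs at 4 weeks and 5.75 to 6.37 at 1 week (log2 FC 1.30, adjusted P value 0.303). Antigen presentation had 18 measured, 0 called and 15 positive, with a median of 0.29, and pig 20 was again the highest array at 7.04, with 6.64 and 6.68 in the others and 6.39 to 6.55 at 1 week. Of 11 macrophage markers 0 were called, with a median of -0.14.

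Of the called chaperones, DNAJB6, which acts at the Z disc, read 2.32, 2.67 and 2.89 at 1 week and 3.60, 4.24 and 4.20 at 4 weeks, a rise of 1.39 (SE 0.19, adjusted P value 0.0041) with no overlap. All its 1 week values lay below 3, so the size of the rise is uncertain, and its other 3 probe sets differed by -0.29 to 0.66. HSPA2, a chaperone of the HSP70 family, rose by 1.34 (adjusted P value 0.0452) and was the only one called of 32 genes of the heat shock and unfolded protein response (median -0.10). The mitochondrial chaperone HSPA9 rose by 1.23 (adjusted P value 0.0182), but its other probe sets differed by -0.02 and -0.36.

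Of 30 splicing factors and RNA-binding proteins 1 rose and 1 fell, with 1 higher and 6 lower at an unadjusted P value under 0.05 and a median of -0.15. RBM3, a cold-inducible RNA-binding protein, read 7.05, 7.46 and 7.15 at 1 week and 8.27, 8.07 and 8.30 at 4 weeks and rose by 0.99 (SE 0.21, adjusted P value 0.0206). TRA2A, an activator of splicing, read 5.74, 6.26 and 6.07 at 1 week and 5.31, 5.13 and 4.81 at 4 weeks and fell by 0.94 (SE 0.23, adjusted P value 0.0482). Both had no overlap. HNRNPH1 and SRSF3, further splicing regulators, differed by -0.60 and -0.57 (adjusted P values 0.0585 and 0.0705).

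Other called genes of RNA handling went in both directions. TYW3 and NSUN3, which modify transfer RNA, fell by 1.46 and 1.37 (adjusted P values 0.0224 and 0.0133). PHAX, an export adaptor of small nuclear RNAs, fell by 0.89 (adjusted P value 0.0188), and MRPS35, a mitochondrial ribosomal protein, by 0.71 (adjusted P value 0.0232). RBM34 rose by 0.96 and 0.57 on its called probe sets (adjusted P values 0.0095 and 0.0212), and EXOSC9 and RPUSD4 rose as well. Of the 6 fits that left out 1 array, RPUSD4 was called in 6, TYW3 in 1 and MRPS35 in 2. The zinc finger transcription factor ZNF281 had 3 probe sets called, which fell by 0.69, 0.78 and 0.96 on the log2 scale, while its other 3 tested probe sets differed by -0.53, -0.16 and 0.41 and were not called. RASA1, which switches off Ras, fell by 0.77 (adjusted P value 0.0345). SPAG16, a protein of the axoneme matched by the authors, fell from 5.29, 4.80 and 5.24 to 3.83, 3.77 and 3.51 (log2 FC -1.41, SE 0.20, adjusted P value 0.0048), and it was called without any one of the 6 arrays. Of 56 cytosolic ribosomal protein genes none was called (median -0.00) on the probe set of highest level. The called probe sets of RPS27A, which fell, and FAU, which rose, are not in that count.

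Of 67 genes that the study names in RM, 6 rose and 3 fell, with 23 higher and 15 lower at an unadjusted P value under 0.05 and a median of 0.22. The study chose these genes on the same arrays, so the count is not independent evidence of their direction. The 6 that rose were PLIN2, MAP4, PSMF1, CNTF, PTPRG and a probe set matched to SPTBN1 by the authors, for which the platform gives FAU. The 3 that fell were ADAMTS3, PPP1R12B and SENP6. The count takes 1 probe set per gene. The study also names SPAG16 and PPP1CA (printed as PP1CA), whose called probe sets, given above, are not in this count. The other SPAG16 probe set, of higher level, differed by -0.54 (adjusted P value 0.309). CNTF, a ciliary neurotrophic factor, rose by 1.45 (adjusted P value 0.0246), and the receptor phosphatase PTPRG by 0.61 (adjusted P value 0.0410), a call that was lost in each fit that left out 1 of the 6 arrays. SENP6, which removes SUMO from proteins, fell by 0.64 (adjusted P value 0.0333), while its other tested probe set differed by 0.34 and 2 more, below the filter, by 0.34 and 0.82.

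**Figure D3:**
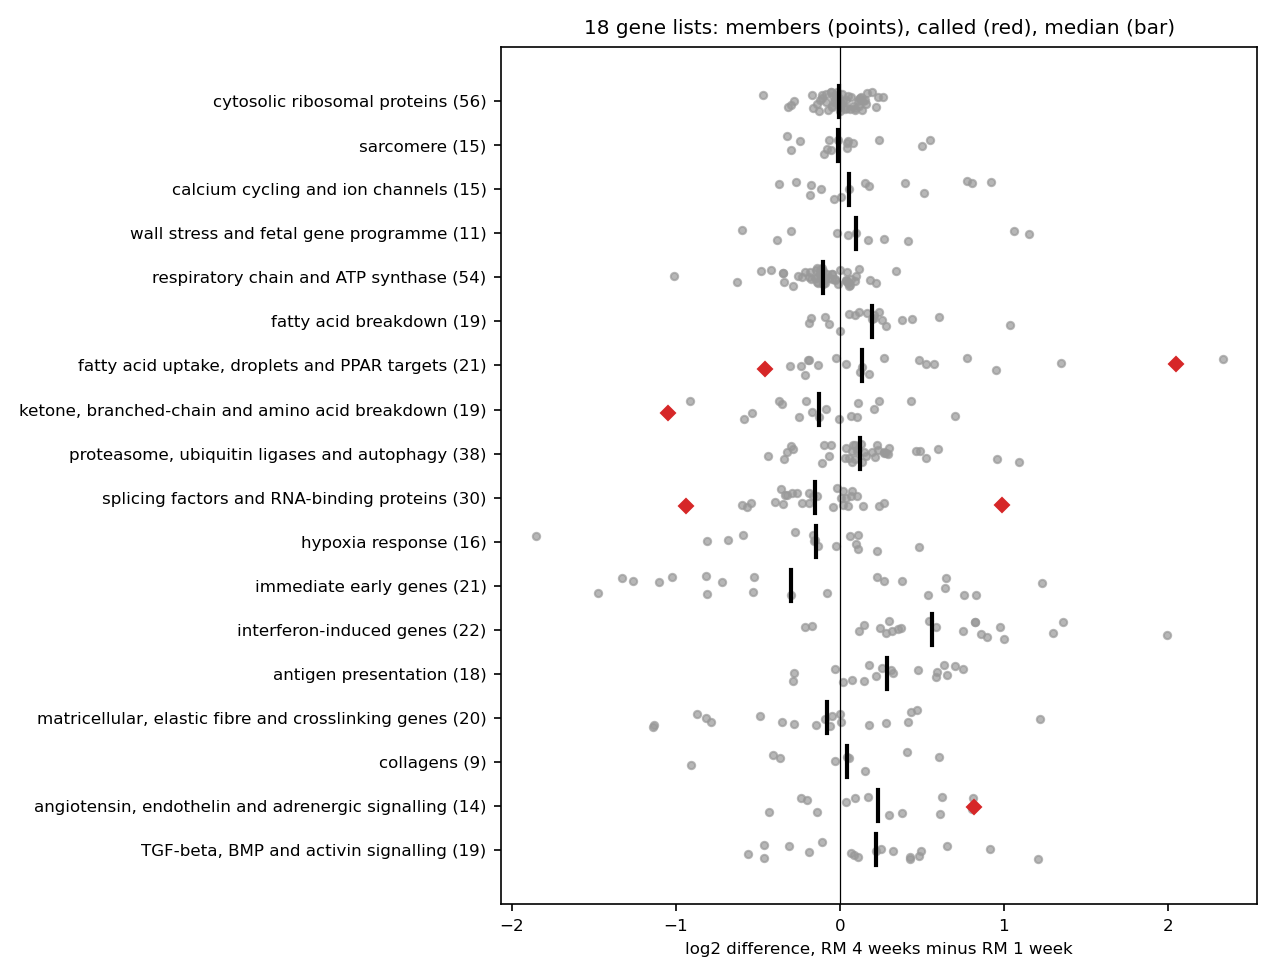
Log2 difference of RM at 4 weeks minus RM at 1 week (x axis) for the measured members of 18 gene lists, with the number of members in brackets. Each grey point is 1 gene, red diamonds are called genes and the black bar is the list's median. Most lists have medians near 0 with 0 called genes, the interferon-induced genes have the highest median of those drawn (0.56) and the immediate early genes the lowest (-0.30).

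IC of the same 6 pigs was set beside RM to ask where the change over time differed between the regions. In IC, 1452 probe sets (11.9%) differed between 4 weeks and 1 week. The RM and IC comparisons share no array but share the pigs. Of the 113 rises in RM, 110 had the same sign in IC (97.3%), and of the 81 falls 78 did (96.3%), against 69.4% of all tested probe sets. In IC, 70 of the rises and 52 of the falls were called in the same direction, where 5.57% of all tested probe sets rose and 6.35% fell, and 0 were called in the opposite direction. Labelling moved in IC as it did in RM: the 3′ minus 5′ difference of ef1a was 1.68 to 2.19 in IC at 1 week and 0.69 to 1.02 at 4 weeks, and the 5′ end of thr read 1.16 to 3.21 and 3.84 to 5.18. Its part in the shared signs was not tested.

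For the difference between regions in the change over time, limma without a pig block called 0 probe sets (0%), with 1022 at an unadjusted P value under 0.05 (8.39%). With the pig as a block it called 8 (fixed block over 18 arrays) or 31 (random block). Of the 8, ADAMTS3 and PLIN2 were also DEPS in RM. PLIN2 changed by -0.32 in IC where it rose by 2.05 in RM, a difference of 2.37 (adjusted P value 0.0296 with the fixed block). ADAMTS3 changed by 0.72 in IC where it fell by 2.19 in RM, a difference of -2.90 (adjusted P value 0.0285 with the fixed block). For PLIN2 and ADAMTS3 the RM mean of a stage lay below 3, so the sizes of these differences are uncertain.

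Further genes among the 8 were not called in RM itself. The differences between regions were 2.91 for TOP2A, the DNA topoisomerase of dividing cells, 2.27 for UBE2C and 2.62 for PBK, further genes of mitosis, and 1.97 for the histone HIST1H2AK. In RM the changes were 0.97 for TOP2A, 0.75 for UBE2C, 0.91 for PBK and 0.31 for HIST1H2AK.

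Other DEPS of RM had the opposite sign in IC without a call of the difference. TPM2 changed by 0.42 in IC, a difference of -2.69, and MBP, myelin basic protein, by -0.36 in IC against 1.28 in RM, where the 1 week mean was 2.35. PCOLCE2 rose in both regions, by 3.35 in IC (adjusted P value 3.49e-05) against 1.40 in RM. FBXO32, MAP4, LAMB1, SESN1 and CD59 rose in IC as well, by 1.54, 1.32, 1.54, 1.56 and 1.59.

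**Figure D4:**
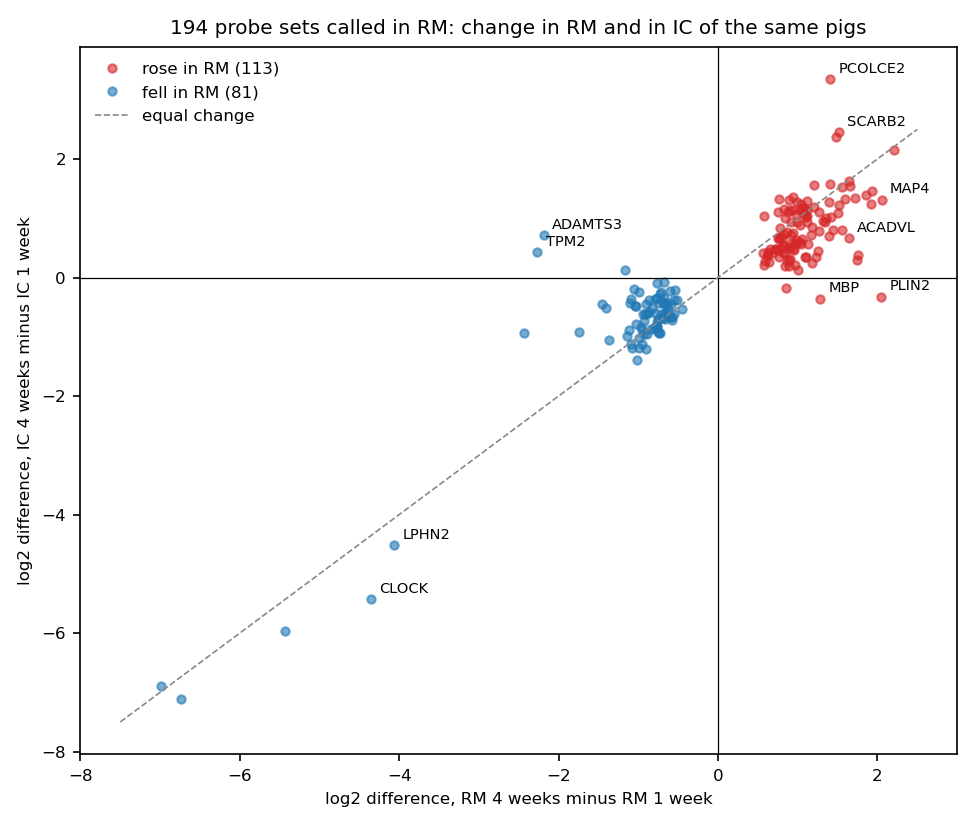
Change from 1 to 4 weeks in RM (x axis) and in IC of the same pigs (y axis), both as log2 differences, for the 194 DEPS of RM. Red points rose in RM (113) and blue points fell (81), and the dashed line marks equal change. Nearly all points lie in the quadrants of equal sign, and PLIN2, MBP, TPM2 and ADAMTS3 are among the few that do not.

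Against CM, and at 6 weeks, the DEPS took different courses. The comparisons with CM and with 6 weeks share arrays with that of 4 weeks against 1 week, so the values are only set side by side. Of the 113 rises, RM at 1 week differed from CM in 9 (1.13% of all tested) and RM at 4 weeks in 19 (1.08% of all tested), and of the 81 falls in 5 and 13, and 0 probe sets differed from CM at both stages. Between 6 and 4 weeks 77 probe sets were called (0.632%), 14 higher and 63 lower.

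PLIN2, A2M, FBXO32, FDFT1, SESN1 and HBP1 were called below CM at 1 week and were not called against CM at 4 weeks. For FDFT1, RM differed from CM by -1.45 at 1 week (adjusted P value 0.0455) and by 0.06 at 4 weeks, and for HBP1 by -1.11 (adjusted P value 0.0108) and -0.14. ACADVL, LAMB1 and PPP1CA were called above CM at 4 weeks, by 1.67, 1.36 and 0.97 (adjusted P values 0.0017, 0.0214 and 0.00483), and were not called against it at 1 week. ACADVL and PPP1CA were lower at 6 than at 4 weeks by 1.89 and 1.14 (adjusted P values 0.000428 and 0.00076), and LAMB1 differed by -1.19 without being called (adjusted P value 0.0504). EGLN1 and MUT were below CM at 4 weeks, by 0.76 and 1.29 on the log2 scale (adjusted P values 0.0218 and 0.0166), and ADAMTS3 was above CM at 1 week by 1.99 (adjusted P value 0.0465).

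The 5 largest falls had a form of their own. They were the probe sets that the authors matched to CLOCK, a circadian transcription factor, and LPHN2, an adhesion receptor, and 3 without a name. The CLOCK match read 5.69, 5.41 and 4.97 at 1 week and 1.01, 1.14 and 0.84 at 4 weeks (log2 FC -4.36, SE 0.57, adjusted P value 0.0032), and the LPHN2 match fell by 4.06 (SE 0.69, adjusted P value 0.00999). The unnamed probe sets fell by 5.44, 6.74 and 6.99 on the log2 scale.

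All 5 were below 3 in the same 7 arrays (highest value 2.01), namely the RM and IC arrays of the 3 pigs at 4 weeks and CM of pig 30, and were at 4.75 or more in the other 14 arrays. The sample titles number those 7 arrays from 1 to 30 and the arrays of 1 week and the other CM pigs from 31 to 54. The labels give no batch, and whether these 5 follow the animals or the handling of the arrays cannot be told apart. Without them 189 DEPS remained.

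**Figure D5:**
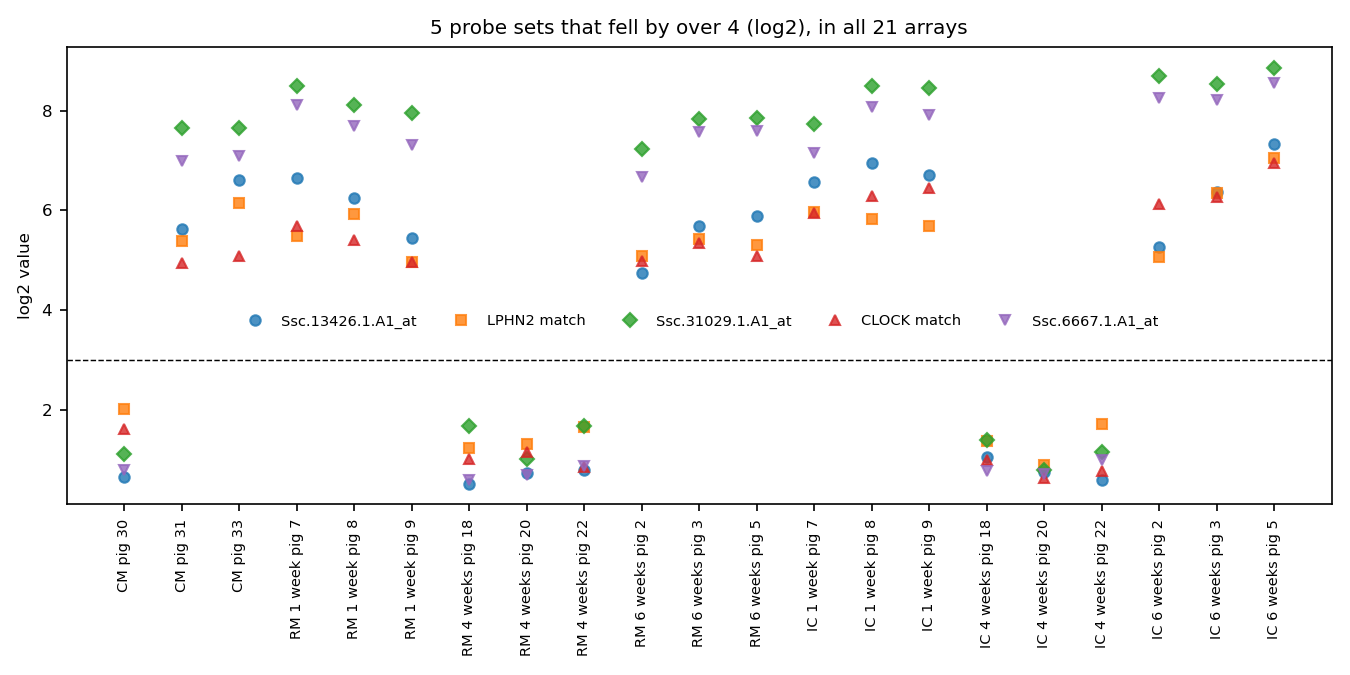
Log2 values of the 5 probe sets with the largest falls in all 21 arrays, named by group and pig. The dashed line is at 3, the level of the filter. All 5 lie below it in CM of pig 30 and in the RM and IC arrays of pigs 18, 20 and 22 at 4 weeks, and above it in every other array.

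The DEPS that rose and fell differed in the kind of probe set. Of the rises, 43 (38.1%) had a probe set identifier whose second number, that of a subcluster within a transcript cluster, is above 1, and of the falls 5 (6.17%), against 12.4% of all tested. Identifiers with the letter A made up 60 of the falls (74.1%) and 34 of the rises (30.1%), against 40.7% of all tested. The median level over the 21 arrays was 4.64 for the rises, 5.08 for the falls and 5.15 for all tested. For 56 of the 90 named rises there were other tested probe sets of the same gene, 68 in all, of which 58 changed in the same direction and 6 were called, with a median of 0.33. For 24 of the 50 named falls there were 42, of which 30 changed in the same direction and 6 were called, with a median of -0.16.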

How the data were processed

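RNA of RM, IC and CM was hybridised to 21 one-colour Affymetrix porcine arrays (3 per group, 7 groups). The authors computed the deposited log2 values with RMA (background correction, quantile normalization, summary by probe set), for 24123 probe sets. The values were used unchanged, all 21 columns were assigned to a sample, and 0 columns of other samples were left over. Arrays have no read depth, and 3 arrays per group limit the precision.

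Probe sets above 3 in at least 10 of 21 arrays (12180) entered 1 fit of 7 group means in limma 3.58.1 under R 4.3.3, with empirical Bayes moderation (14 residual and 3.98 prior degrees of freedom) and Benjamini-Hochberg adjustment within each comparison, and an adjusted P value under 0.05 was called. A single exact two-sided permutation test of 3 against 3 arrays cannot go below 0.1 and was not used for calls. The labels give each array its own animal within a group. RM and IC arrays are paired by the pig number in the labels (residual r of 0.0714 to 0.491 in 9 pigs), which bears only on the comparison of regions. Arrays correlated at r = 0.987 to 0.993 within the RM groups of 1 and 4 weeks and at 0.980 to 0.986 between them, so none was a duplicate.

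A tested probe set took the single symbol of the platform annotation (6257 probe sets) and otherwise from the authors' match to a human gene (1078 more). Of 1350 tested probe sets with both, 255 differed, and 133 had several symbols. Lists used platform names and, per gene, the probe set with the highest mean over 21 arrays, except the study's own genes, which used the authors' match first. ADAMTS3, CNTF, CLOCK, LPHN2, PPP1R12B, SPAG16, PTPRG and RASA1 rest on the authors' match. The authors' tables of their own fold changes and P values entered no fit or call.

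The groups compared and the gene lists were chosen with earlier results of these data known. The named genes were to be the 15 called genes with the largest rise and fall, up to 4 members of each list by size, cell type markers, genes the study names in RM, those called between regions, and those next to the threshold. Other called genes, and the opposite signs in IC, were named after their values were seen. Lists with under 5 measured genes were not summarised. Alternatives were other sets of arrays, filters, centrings, cyclic loess, array weights, a trended prior, pig blocks, labelling covariates, thresholds, the mean of a gene's probe sets, and each array left out. In simulated data of 12180 probe sets the fit recovered 81 of 100 changes of 1 and 97 of 100 changes of 2 on the log2 scale between RM at 4 weeks and 1 week, with 9 false calls. The simulated noise was normal and independent, with each probe set's own spread. It held no labelling shift, no pairing by pig and no unequal arrays, so it does not give the error rate of the real comparison.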

Additional observations from a re-analysis of the deposited data

Results flagged for a closer look

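Outside the pig genes, the 5′ probe sets of the spiked-in bacterial transcripts thr and dap were higher in RM at 4 weeks than in CM, by 1.20 and 0.679 on the log2 scale. These transcripts are added to the RNA or to the labelling reaction in the same amount for every array and carry no information on the tissue. Both were singled out because they lay above the control arrays in data that no comparison of genes used. Their part in the differences between RM at 4 weeks and at 1 week was not tested beyond the fit with their 3′ minus 5′ difference as a covariate.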

How the results depend on the processing

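All 194 DEPS kept their sign in every alternative in which they were tested, but the number called moved widely. The kept sign is not independent support, since the DEPS were chosen on these arrays. Fits that change only the spread, the filter or the threshold leave each difference as it was. For RM at 4 weeks against 1 week it was 124 with the 6 RM arrays alone (65 of the 194), 97 with the 9 RM arrays (59 of the 194), 329 without the 6 week arrays, 116 after centring on ribosomal protein genes, 1909 with array weights, 1 with the GAPDH covariate, 1 with the spiked-in covariate, 25 at an adjusted P value under 0.01, 551 under 0.1, 80 with an absolute log2 FC of at least 1, and 114 with the mean of all probe sets of a gene. Leaving out 1 array gave 21 to 241. Centring on the median gave 227, of which 43.2% were higher, against 58.2% of the 194. The random replicate block gave 205. The spiked-in covariate and the fits without CM of pig 30 (184) or without the 5 largest falls (189) were added after seeing the data.

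For the difference between regions, with 0 called, the random replicate block gave 31, the fixed replicate block 8, no filter 72, a filter of above 5 in 3 arrays 6, centring on the median 1 and array weights 676, and leaving out 1 pig gave 0 to 3. For RM at 6 against 4 weeks, with 77 called, no filter gave 195 and leaving out 1 array 26 to 116. Among named genes that were not called, LOX turned to -0.0630 with the spiked-in covariate and COL3A1 to -0.00847 with the mean of its probe sets. The cause of these moves was not tested. With the pooled spread of 7 groups, single genes such as PDK4 can differ widely in RM and not pass.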
